A study of Mus musculus with 2 samples.

Results

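The cluster of miR-221 and miR-222 was followed through all 4 of its mature arms, mmu-miR-221-3p, mmu-miR-221-5p, mmu-miR-222-3p and mmu-miR-222-5p (mmu for mouse, left out from here on), which were selected by name from the 717 miRNAs analysed here. Small RNA of tumor-associated macrophages (TAMs) was set against that of spleen macrophages (SMs). TAMs came from breast tumors of BALB/c mice, which 4T1 mammary carcinoma cells had formed in the mammary fat pad of female mice injected at 8 weeks of age, and the tumors were taken 3 weeks later. SMs came from the spleen of naïve, healthy BALB/c mice that carried no tumor, and no genetic change or drug is named for either group. To obtain TAMs, the digested tumor was freed of red blood cells and passed over a magnetic column with beads against CD11b. Monocytes, neutrophils and NK cells carry CD11b as well, so the selection is not limited to macrophages. The study bought its female mice at 6 to 8 weeks of age, and no separate age was found for the naïve mice. Neither the way in which SMs were selected nor the number of mice behind a library was found in the labels or methods.

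miR-221 and miR-222 are processed from neighboring hairpins of a shared primary transcript, and NF-κB and AP-1 are known to drive that transcript in several cell types. Dicer cuts each hairpin into a 5p and a 3p strand, of which mainly the 3p strand is loaded into Argonaute. The 3p strands of both miRNAs recognize their targets with the same seed, the bases that pair first with a target, and are known to repress the cell cycle inhibitor p27 and the receptor Kit. They are abundant in endothelial cells and in many carcinomas.

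The sequences are shown because both 3p strands carry 1 seed while the 5p strands do not. They are written 5′ to 3′ as the table of counts holds them, with U for T, and bases 2 to 8, the seed, are in capitals.
miR-221-3p: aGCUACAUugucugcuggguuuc
miR-222-3p: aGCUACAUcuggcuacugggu
miR-221-5p: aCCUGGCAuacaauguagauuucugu
miR-222-5p: uCAGUAGCcaguguagauccu
The 3p strands shared their first 8 bases and 11 of 21 positions when aligned from the 5′ end. The 5p strands shared none of their first bases and 5 of 21 positions. No other miRNA of the table had the seed of any of the 4 arms. No arm shared a run of 16 or more bases with another miRNA of the table. The longest run was 9 bases, between miR-222-5p and miR-10a-5p. RefSeq lists 3 of the 4 arms, and 2 of them with the same sequence as the table. The RefSeq form of miR-222-3p is 23 bases long against 21 in the table.

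On GRCm38.p6 both hairpins lie on the minus strand of chromosome X, with Mir222 ahead of Mir221 in the direction of transcription. Mir222 spans chrX:19146893-19146971 and Mir221 spans chrX:19146294-19146388, with 504 bases between them. In GENCODE M21 no other gene overlaps the cluster, so it is intergenic in this annotation. The nearest gene is the noncoding Gm14636 on the same strand, which ends 10009 bases upstream of Mir222. The hairpins, from RefSeq, are given with the 5p and the 3p arm of the table in capitals, to show where the counted strands sit on either side of the loop.
Mir222: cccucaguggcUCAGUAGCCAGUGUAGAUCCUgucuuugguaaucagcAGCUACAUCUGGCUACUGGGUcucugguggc
Mir221: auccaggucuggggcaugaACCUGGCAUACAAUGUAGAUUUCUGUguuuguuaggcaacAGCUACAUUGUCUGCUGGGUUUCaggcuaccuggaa
By this match miR-221-3p covers chrX:19146307-19146329 and miR-221-5p chrX:19146344-19146369. miR-222-3p covers chrX:19146903-19146923 and miR-222-5p chrX:19146940-19146960.

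**Figure D1:**
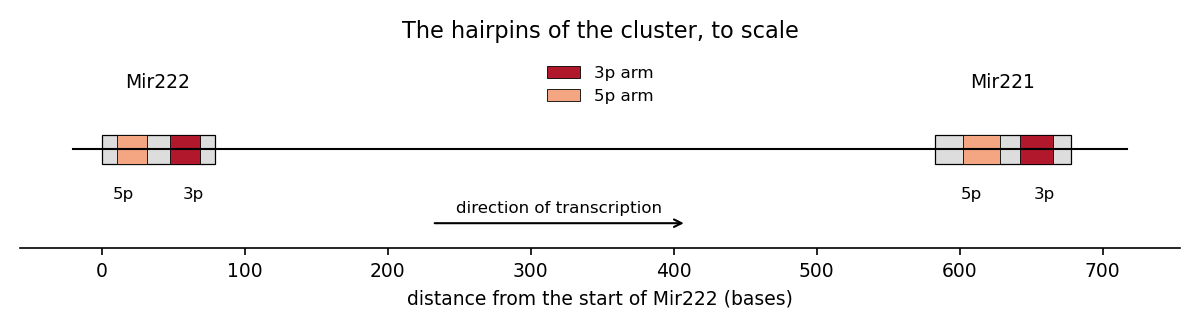
The hairpins Mir222 and Mir221 drawn to scale by distance in bases from the start of Mir222, in the direction of transcription. Dark red boxes are the 3p arms, light boxes the 5p arms and grey the rest of each hairpin. The hairpins are 79 and 95 bases long, with 504 bases between them.

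All 4 arms had more reads, relative to the library total, in TAMs than in SMs. The level is given as TPM, which here is the count of a miRNA per 1000000 of a total of 13324721 reads in TAMs and 15422872 in SMs, without correction for length. A single read counted for 0.0750 TPM in TAMs and for 0.0648 TPM in SMs, and 7333652 reads of TAMs and 10108834 of SMs were of known miRNAs. With a single library of TAMs and a single one of SMs, the spread between replicates is unknown and no difference was tested. The 95% intervals are exact, come from the counts and cover counting error only, and PCR copies can make them too narrow even for that.

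miR-221-3p, the most abundant arm, had 12097 reads in TAMs and 5000 in SMs. Its level was 907.9 TPM in TAMs against 324 TPM in SMs, which gave a ratio of 2.80 (95% interval 2.71 to 2.89). It was the 51st most abundant miRNA of TAMs and the 71st of SMs. Its share of the summed miRNA counts was 0.165% in TAMs and 0.0495% in SMs.

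miR-222-3p, which carries the same seed, had 3355 reads in TAMs and 1061 in SMs. Its level was 252 TPM in TAMs against 68.8 TPM in SMs, the largest ratio of the 4 arms at 3.66 (3.41 to 3.93). It ranked 86th in TAMs and 129th in SMs. Its interval does not overlap that of miR-221-3p, so these libraries differed more in miR-222-3p than in miR-221-3p beyond counting error.

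miR-221-5p, the strand usually discarded, had 648 reads in TAMs and 464 in SMs. Its level was 48.6 TPM in TAMs against 30.1 TPM in SMs, which gave a ratio of 1.62 (1.43 to 1.83). It ranked 149th in TAMs and 162nd in SMs. This ratio was the smallest of the 4 arms, and it lay below the intervals of both 3p strands. miR-222-5p, the rarest arm, had 52 reads in TAMs and 21 in SMs. Its level of 3.90 TPM in TAMs against 1.36 TPM in SMs gave a ratio of 2.87 (1.70 to 5.01). At this depth the interval of miR-222-5p holds the ratios of both 3p strands, and its order against them could not be told. miR-221-5p had 12.5 reads for each read of miR-222-5p in TAMs and 22.1 in SMs, a quotient of 0.564 (0.318 to 0.969). This interval stays only narrowly below 1 and rests on 21 reads of miR-222-5p in SMs. As PCR copies can make it too narrow, the order of the 5p strands is uncertain as well.

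**Figure D2:**
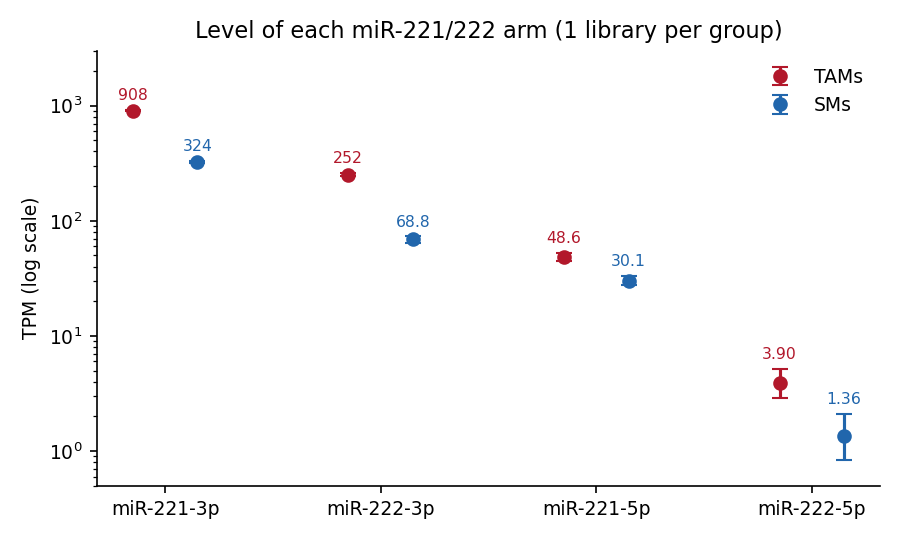
Level of each arm in TPM on a log axis, TAMs in red to the left of SMs in blue. Points are the values of 1 library each and bars are exact 95% counting intervals. All 4 arms lie higher in TAMs, from 907.9 TPM of miR-221-3p in TAMs to 1.36 TPM of miR-222-5p in SMs.

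Summed over the shared seed, the 3p strands had 15452 counts in TAMs and 6061 in SMs, or 1160 TPM against 393 TPM. The ratio of the sum was 2.95 (2.86 to 3.04). It cannot be changed by reads exchanged between miR-221-3p and miR-222-3p. The summed 5p strands had 700 counts in TAMs and 485 in SMs, a ratio of 1.67 (1.49 to 1.88). By hairpin, the arms of mir-221 had a summed ratio of 2.70 (2.62 to 2.79) and those of mir-222 one of 3.64 (3.40 to 3.91). The whole cluster held 16152 reads in TAMs and 6546 in SMs, or 0.220% of the summed miRNA counts of TAMs and 0.0648% of those of SMs.

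Across the libraries as a whole, 264 miRNAs reached 10 TPM in one library or in both. On the scale of TPM + 1 the level in TAMs was at least 2-fold above that in SMs for 64 of them (24.2%) and at least 2-fold below it for 86 (32.6%). On that scale the median ratio of the 264 was 0.782. Of the 4 arms, 3 passed this minimum, each with at least 10 TPM in both libraries. miR-222-3p, with a ratio of TPM + 1 of 3.62, and miR-221-3p, with 2.79, were at least 2-fold higher, and miR-221-5p, with 1.60, was not. By ratio they were 45th, 55th and 77th of the 264. miR-222-5p stayed under the minimum, and its ratio of TPM + 1 was 2.08. None of these 3 arms was 4-fold higher at this scaling, whereas 42 of the 264 miRNAs were. Scaled by the sum of the miRNA counts, miR-222-3p passed 4-fold with a ratio of 4.36. Scaling by totals of the miRNA counts less the 10 most abundant miRNAs of each library multiplied every ratio by 1.41. It put miR-221-5p past 2-fold with a ratio of 2.28 and miR-222-3p past 4-fold with 5.16, and it turned the count over all miRNAs to 91 higher and 53 lower. Of all miRNAs past 2-fold, 63.2% were then higher, against 42.7% before.

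**Figure D3:**
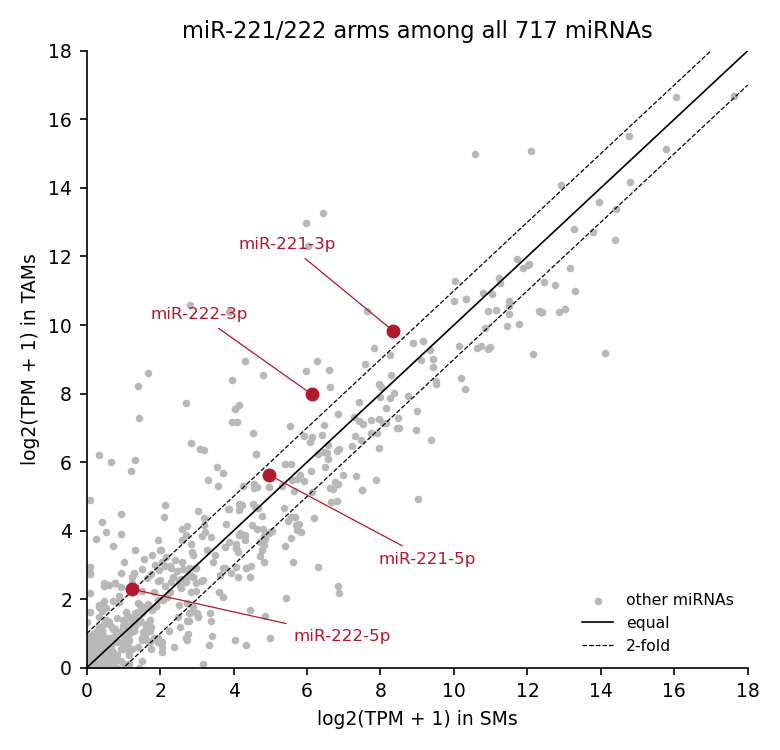
Level of all 717 miRNAs in TAMs (vertical axis) against SMs (horizontal axis), both as log2(TPM + 1), with the 4 arms in red. The solid line marks equal levels and the dashed lines 2-fold differences. miR-221-3p and miR-222-3p lie above the upper dashed line, miR-221-5p lies below it and miR-222-5p lies close to it.

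The balance of the strands was examined next, because a ratio of counts within a library does not depend on the library total. For mir-221, the 3p strand outnumbered the 5p strand 18.7 to 1 in TAMs (95% interval 17.2 to 20.2) and 10.8 to 1 in SMs (9.80 to 11.9). The ratio in TAMs was thus 1.73 times that in SMs (1.53 to 1.96), a log2 shift of 0.79. The 3p strand of mir-221 was the major strand in both libraries, and its excess over the 5p strand was larger in TAMs beyond counting error. For mir-222, the 3p strand outnumbered the 5p strand 64.5 to 1 in TAMs (49.1 to 86.6) and 50.5 to 1 in SMs (32.9 to 82.0). With 21 reads of miR-222-5p in SMs the quotient of 1.28 had an interval from 0.727 to 2.17, so a shift of either direction was within counting error.

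The strand balance of other miRNAs, with arms paired by name, gives the scale of this shift. Among 104 miRNAs with at least 10 counts of each arm in both libraries, the log2 shift of the 3p to 5p ratio had a median of 0.01 and quartiles of −0.55 and 0.52. A shift of at least 1 in size was found in 29 of the 104 (27.9%). The shift of mir-221 lay above the upper quartile, and 37 of the 104, mir-221 included, had a shift of its size or larger. Among the 43 miRNAs with at least 100 counts of each arm in both libraries, 11 had a shift of that size or larger, mir-221 included. The shift of mir-222, 0.35, lay within the quartiles of the 104. Shifts ran from −2.43 for miR-467d to 2.90 for miR-199b. The more abundant arm differed between the libraries for 6 miRNAs, neither mir-221 nor mir-222 among them. In both libraries miR-467d-3p had the same level as miR-467a-3p, and miR-199b-3p had nearly that of miR-199a-3p. The 3p reads behind both extremes may therefore not belong to 1 hairpin alone. Equal levels were also found for other 3p arms, such as miR-669a-3p and miR-669o-3p, so the 104 are not all independent.

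The hairpins also differed slightly from each other. miR-221-3p had 3.61 reads for each read of miR-222-3p in TAMs (3.47 to 3.75) and 4.71 in SMs (4.41 to 5.04). The quotient of TAMs over SMs was 0.765 (0.708 to 0.826), so miR-222-3p made up more of the shared seed in TAMs than in SMs. Of all reads of the cluster, miR-221-3p held 74.9% in TAMs (74.2 to 75.6%) and 76.4% in SMs (75.3 to 77.4%). miR-222-3p held 20.8% in TAMs (20.1 to 21.4%) and 16.2% in SMs (15.3 to 17.1%). miR-221-5p held 4.01% in TAMs (3.71 to 4.33%) and 7.09% in SMs (6.48 to 7.74%). The share of miR-222-5p was 0.322% in TAMs and 0.321% in SMs. In TAMs a larger part of the reads of the cluster was thus miR-222-3p, and a smaller part miR-221-5p, than in SMs. A ratio between different strands compares reads rather than molecules, since ligation of adapters depends on the sequence.

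**Figure D4:**
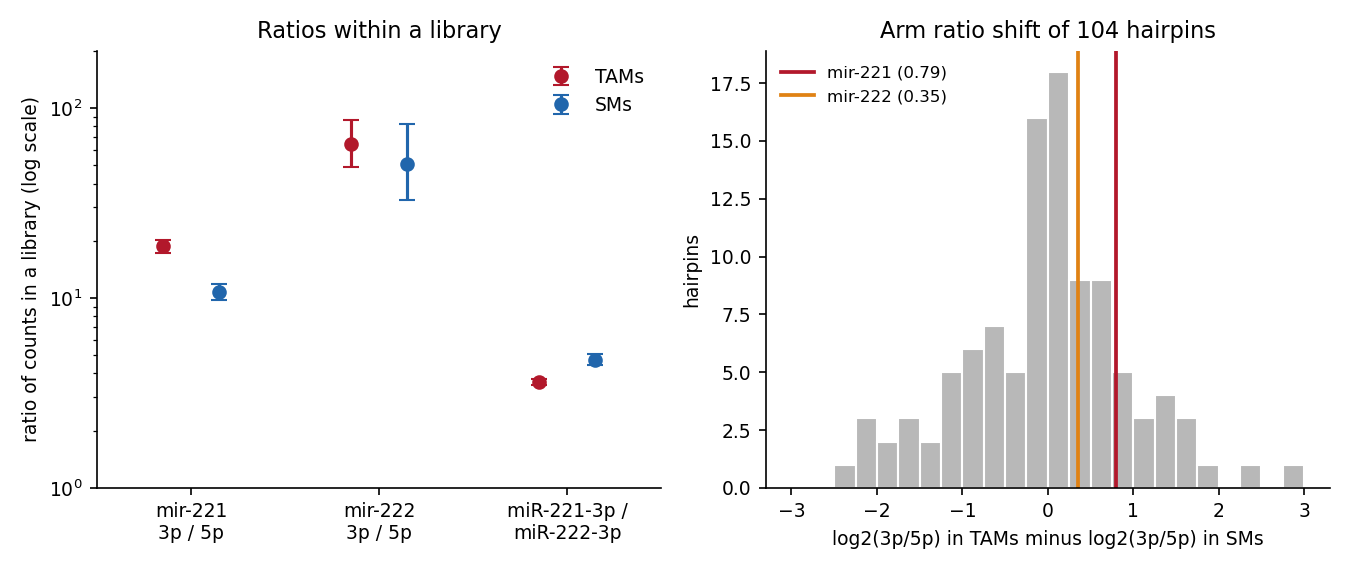
Left, ratios of counts within a library on a log axis, TAMs in red to the left of SMs in blue, with exact 95% intervals. Right, number of miRNAs by log2 shift of the 3p to 5p ratio, TAMs minus SMs, for 104 miRNAs with arms paired by name. The shift of mir-221 is 0.79 and that of mir-222 is 0.35. The intervals of mir-221 do not overlap between TAMs and SMs and those of mir-222 do.

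Other miRNAs known to respond to NF-κB, AP-1 or endotoxin were listed for comparison. The list was drawn up with results of these libraries known, so its direction supports nothing. Of its 23 measured arms 18 had at least 10 TPM in TAMs or SMs, of which 13 were past 2-fold and higher in TAMs and 1 was lower. The median ratio of TPM + 1 was 12.3, against 0.782 over all 264 miRNAs. Under each of the other scalings 13 to 15 were higher and 1 was lower. Their guide strands fell on either side of miR-221-3p and miR-222-3p.
Those with larger ratios were miR-125a-5p at 13.8, miR-132-3p at 37.9, miR-125b-5p at 96.9, miR-212-3p at 108, miR-9-5p at 175 and miR-31-5p at 249. All of these except miR-125a-5p had under 15 TPM in SMs, where miR-221-3p already had 324 TPM. The ratio of miR-212-3p rests on 9 reads in SMs (56.8 to 238) and that of miR-9-5p on 34 (125 to 253). miR-212-5p had more reads than miR-212-3p in both libraries, and its ratio was 44.3 (29.4 to 70.3).
miR-155-5p, an NF-κB target of activated macrophages, was the closest in the list to miR-222-3p, at 238 TPM in TAMs against 71.3 TPM in SMs. Its ratio of 3.33 (3.11 to 3.57) overlaps the interval of miR-222-3p. miR-146b-5p and miR-21a-5p, each far more abundant, had ratios of 1.69 and 1.52. miR-147-3p had a ratio of 0.591, at 24.1 TPM in TAMs against 40.8 TPM in SMs. miR-146a-5p, known as a brake on NF-κB, had a ratio of 0.0332. Members of the list ran in both directions. The 4 arms of the cluster ran in 1. So did all measured arms of miR-9, miR-31, miR-125a, miR-125b, miR-132, miR-155 and miR-212, which were higher in TAMs. Of these, miR-155-3p had 7 reads in TAMs and 0 in SMs. Both arms of miR-146b had ratios above 1, miR-146b-3p on 14 reads in each library. The arms of miR-21a ran in opposite directions. Both arms of miR-146a and of miR-147 were lower. miR-146a-3p had 0 reads in TAMs and 26 in SMs, and miR-147-5p had 9 and 18.

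Over all miRNAs, the nearest to each 3p strand were sought by the distance between their log2(TPM + 1) values in the 2 libraries. Closest to miR-222-3p were miR-6243, with 269 TPM in TAMs and 68.6 TPM in SMs at a distance of 0.0958, and miR-155-5p at 0.0979. miR-181d-5p, miR-320-3p and miR-127-3p followed at 0.540, 0.706 and 0.856. Closest to miR-221-3p were miR-181b-5p, with 710.1 TPM in TAMs and 469 TPM in SMs at a distance of 0.638, and miR-107-3p at 0.696. miR-99a-5p, at 0.737, had the most similar ratio of this group, 2.84 (2.73 to 2.95), at 636 TPM in TAMs against 224 TPM in SMs. miR-501-3p and miR-141-3p followed at 0.866 and 0.914. With 2 libraries such a likeness rests on 2 values per miRNA.

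The other miRNAs of chromosome X were set beside the cluster. A chromosome could be assigned to 607 of the 717 miRNAs (84.7%). Beside the cluster, 68 had all their hairpins on chromosome X, and 22 of these had at least 10 TPM in TAMs or SMs. Among the 22, 0 were past 2-fold and higher in TAMs, 9 were past 2-fold and lower and 13 were neither, with a median ratio of TPM + 1 of 0.642. The 9 are 40.9% of the 22, beside 32.6% lower, 24.2% higher and a median of 0.782 over all 264 miRNAs. A ratio above 1 was found for 3 of the 22, each with an interval above 1. The highest was miR-500-3p, at 60.3 TPM in TAMs against 41.6 TPM in SMs, with a ratio of 1.45 (1.30 to 1.61). miR-501-3p had a ratio of 1.30 (1.26 to 1.34) and miR-351-5p one of 1.25 (1.20 to 1.31). The lowest was miR-223-3p, a miRNA of granulocytes and monocytes, at 1413 TPM in TAMs against 8326 TPM in SMs. Many of the 22, such as miR-322-5p, miR-450a-5p and miR-542-3p, share a transcript with others and are not independent. Under the other scalings 0 or 1 were past 2-fold and higher and 6 to 8 lower.

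Markers of other cell types were read in the same libraries, and some lists differed past 2-fold while others did not. Both arms of miR-126, a miRNA of endothelial cells, which also carry much miR-221 and miR-222, were measured. miR-126-5p stood at 369 TPM in TAMs against 313 TPM in SMs, with a ratio of 1.18 (1.13 to 1.23). miR-126-3p stood at 37.8 TPM in TAMs against 30.0 TPM in SMs, with a ratio of 1.26 (1.11 to 1.43). Both were under the ratios of the 3p strands of the cluster. All 7 miRNAs listed for epithelial cells were past 2-fold and higher in TAMs. They had a summed level of 1897 TPM against 284 TPM in SMs. miR-205-5p, the rarest of these, had 1 read in SMs, and none was at 0. Of 6 miRNAs of stromal cells 4 had at least 10 TPM in TAMs or SMs, of which 2 were past 2-fold and higher, with a median ratio of TPM + 1 of 2.54. miR-199a-3p had a ratio of 12.1 (10.6 to 13.9) and miR-199a-5p one of 6.04 (4.46 to 8.31). miR-214-3p, under the minimum of 10 TPM, had one of 11.8 (5.11 to 33.3). The summed level of the 6, 2618 TPM in TAMs against 2453 TPM in SMs, is mostly that of miR-143-3p, which had 2388 TPM in TAMs against 2420 TPM in SMs. Both arms of miR-223, which marks myeloid cells, and both of miR-142, which leukocytes share, lymphocytes included, were present in either library and lower in TAMs. miR-223-5p stood at 36.3 TPM in TAMs against 104 TPM in SMs, beside the values of miR-223-3p given above. The level of miR-142-5p was 5729 TPM in TAMs and 21578 TPM in SMs. That of miR-142-3p was 573 TPM in TAMs and 4553 TPM in SMs. Both miRNAs of lymphocytes were lower as well, at a sum of 1160 TPM in TAMs against 3989 TPM in SMs. All 4 of red blood cells were lower too, at a sum of 1376 TPM in TAMs against 6022 TPM in SMs. That sum is mostly miR-486-5p, at 1343 TPM in TAMs against 5355 TPM in SMs, a ratio of 0.251. Its reads may not be its own alone, since miR-3107-5p had nearly the same level in both libraries. The ratios of miR-451a, miR-144-3p and miR-144-5p were 0.0563, 0.0304 and 0.0266. In bulk RNA, fewer cells of a type and less of a miRNA per cell cannot be told apart. The part of these cell types in the levels of miR-221 and miR-222 was not tested, and tissue, tumor and selection of the cells cannot be told apart from the groups.

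**Figure D5:**
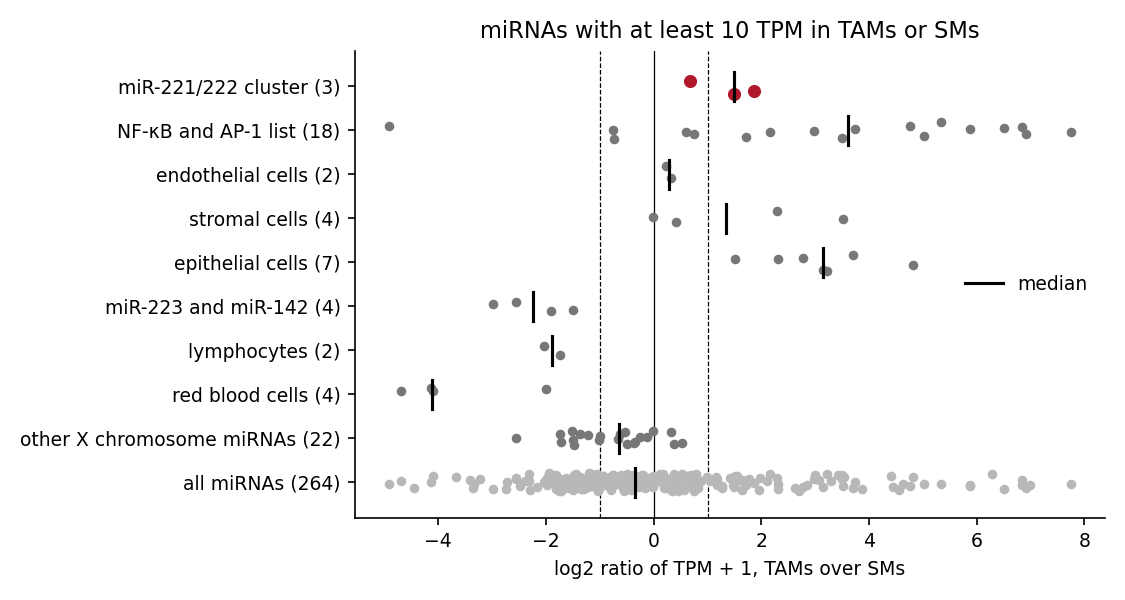
Each point is a miRNA that reached 10 TPM in TAMs, SMs or both, placed by its log2 ratio of TPM + 1, TAMs over SMs, with the number of miRNAs of each list in parentheses and its median as a black bar. The solid line marks equal levels and the dashed lines 2-fold differences. The 3 arms of the cluster that passed lie to the right of 0, miR-222-5p did not pass, and none of the other 22 miRNAs of chromosome X lies beyond the right dashed line.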

How the data were processed

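Small RNA libraries of TAMs and SMs, 1 each, were made by TruSeq from 3 µg of total RNA and sequenced on an Illumina machine, a HiSeq in the methods and a GAIIX in the series record. Per the file headers, the authors counted reads of each known mature miRNA with end variants of 2 bases allowed. The deposited TPM is that count per 1000000 of a total per library. Bowtie2 is named in the submitters' processing notes. Its version, the genome build and the release of miRBase were not found in the labels, methods or headers. The authors also deposited a ratio and a chi-square p-value per miRNA, which were not used. Of the table, 2 lines were left out.

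Groups were taken from the sample titles. Ratios have exact conditional binomial 95% intervals and shares have Clopper-Pearson intervals (Python 3.11.15, scipy 1.17.1). Counts of miRNAs past 2-fold used a pseudocount of 1 TPM, which understates the change of low miRNAs, and a minimum of 10 TPM in TAMs or SMs. Alternative scalings were the sum of miRNA counts, that sum less the top 10 miRNAs of each library, TMM (edgeR 4.0.16) and DESeq2 1.42.0 size factors. Filters, pseudocounts and fold thresholds were also varied. The calculations were tested on simulated counts with counting error only and true changes of 4-fold or more. That test covers neither changes near 2-fold nor spread beyond counting error. Hairpin sequences and positions are from RefSeq on GRCm38.p6, and neighboring genes from GENCODE M21. Arm sequences are those deposited with the counts, and arm positions come from matching them to the hairpins. The miRNAs named are the 4 arms, the 5 nearest in level to each 3p strand and the guide strands of the NF-κB and AP-1 list. Other arms of that list, the arms of miR-126 and examples of the other lists are named as well. The members and lists were chosen with earlier results of these data known.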

Additional observations from a re-analysis of the deposited data

How the results depend on the processing

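No paired analysis was possible because TAMs and SMs are single libraries, and none could be left out. A scaling multiplies every ratio by 1 factor, so it cannot change the order of the arms, their strand ratios or the quotients within a library. The median log2 ratio of TPM + 1 over miRNAs past the minimum was −0.36, −0.08 with the sum of the miRNA counts and 0.20 without the 10 most abundant miRNAs. All 4 arms stayed higher in TAMs under the 4 other scalings. With the sum of the miRNA counts the ratio was 3.33 for miR-221-3p, 1.93 for miR-221-5p, 4.36 for miR-222-3p and 3.51 for the summed 3p strands. Without the 10 most abundant miRNAs these were 3.95, 2.28, 5.16 and 4.16. With TMM the ratio was 2.97 for miR-221-3p and 3.13 for the summed 3p strands, and with DESeq2 size factors 2.94 and 3.09. The other ratios stayed within their counting intervals, which for miR-222-5p are wide.

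Past 2-fold were 64 miRNAs higher and 86 lower. Without the minimum 102 were higher, at 100 TPM 34 were higher and 48 lower, at 4-fold 42 were higher and 22 lower, and without the 10 most abundant miRNAs 53 were lower. For these counts of miRNAs and of arms, the scalings by the sum of the miRNA counts and without the 10 most abundant miRNAs were chosen after the data were seen. Of the arms, 2 were past 2-fold and higher, beside 64 of 264 miRNAs. Without the minimum 3 arms were, beside 102 of 717 miRNAs. Without the 10 most abundant miRNAs 3 arms were, beside 91 of 269. At 1.5-fold 3 arms were higher, beside 83 of 264, and at 4-fold 0 arms were, beside 42 of 264. Shifts of the strand ratio of at least 1 were found in 27.9% of miRNAs at 10 counts and in 16.3% at 100 counts, where mir-222 no longer had enough reads.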
